A study of Homo sapiens with 12 samples.

Results

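The 37 genes described here are targets of p53, taken one by one and matched by symbol to the Ensembl gene identifiers of a table of 43876 genes. All 37 symbols found an identifier, and 34 genes reached 1 FPKM (fragments per kilobase of gene and per depth of the library, a level scaled to gene length and sequencing depth) in at least 3 of 12 libraries and were tested. The cells were MV4-11, a human acute myeloid leukemia line that carries an internal tandem duplication in the receptor kinase gene FLT3. They received DMSO as the vehicle, 20 nM mitoxantrone, 25 nM gilteritinib, or a combination of 20 nM mitoxantrone with 20 nM gilteritinib for 24 h, with 3 libraries for each condition. All libraries carry the genotype label wild-type, with no gene named. The drug is called mitoxantrone in the sample labels and mitoxantrone-liposome in the methods. Gilteritinib was given at a higher dose alone than in the combination, so the 2 gilteritinib conditions were not matched in dose. Nothing in the labels says whether the libraries came from separate cultures, so a p-value measures only the spread between these libraries.

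p53 is a transcription factor that is kept at a low level by the ubiquitin ligase MDM2 and is stabilized when DNA is damaged or replication is disturbed. It binds a response element made of a pair of decamers and raises the transcription of genes for cell cycle arrest, DNA repair, apoptosis and antioxidant defence, and of MDM2 itself, which closes a negative feedback loop. Mitoxantrone is an anthracenedione that traps topoisomerase II on broken DNA, a known trigger of p53. Gilteritinib is an inhibitor of the FLT3 and AXL kinases.

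The libraries held 31725019 to 41330652 fragments, as recovered from the steps that whole fragments leave in the FPKM values. A tested member had between 92 fragments (GADD45A, gilteritinib, replicate number 2) and 42165 fragments (MDM2, mitoxantrone, replicate number 1) in a library. Counting error exceeded the SD between libraries for 8 of the 136 condition means of tested members. All 10 myeloid markers examined reached 1 FPKM, with summed levels of 906 to 1736 FPKM per library, none of 5 T cell, 4 epithelial or 4 fibroblast markers did, and 1 of 4 B cell and 1 of 4 erythroid markers did. Libraries with replicate number 1 stood apart from numbers 2 and 3 in every condition. Between libraries of 1 condition, the median chi-square of gene counts was 14.6 to 28.2 times that of sampling alone for pairs that hold number 1, and 2.45 to 6.99 times for numbers 2 and 3. No pair agreed within sampling noise, and what the number stands for is not given in the sources used here.

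The promoter windows of 5 members are shown to describe the letters near an annotated start, where a p53 response element may or may not lie. RefSeq promoter windows of 300 bases on GRCh38.p14 (250 before to 50 after an annotated start) were present for 28 of the 37 members, in 43 windows. They were searched on the sense strand, which the palindromic motif makes equal to both, for the p53 response element. A match was a pair of decamers, 0 or 1 base apart, with the C at position 4 and the G at position 7 of each decamer fixed and at most 2 mismatches in the 20 letters. The search matched 187 of all 35116 windows (0.533%) and 5 of the 43 member windows, which belong to MDM2 (2 overlapping windows), DDB2, AEN and FAS. All 5 windows below are on the plus strand, and capitals mark the matched decamers.
MDM2, chr12:68808767-68809066: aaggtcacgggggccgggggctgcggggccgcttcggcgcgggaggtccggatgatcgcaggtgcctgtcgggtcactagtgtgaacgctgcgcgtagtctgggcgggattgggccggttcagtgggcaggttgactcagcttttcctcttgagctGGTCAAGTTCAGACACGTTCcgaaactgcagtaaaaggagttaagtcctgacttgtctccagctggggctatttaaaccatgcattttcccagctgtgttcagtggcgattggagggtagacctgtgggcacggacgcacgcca
DDB2, chr11:47214724-47215023: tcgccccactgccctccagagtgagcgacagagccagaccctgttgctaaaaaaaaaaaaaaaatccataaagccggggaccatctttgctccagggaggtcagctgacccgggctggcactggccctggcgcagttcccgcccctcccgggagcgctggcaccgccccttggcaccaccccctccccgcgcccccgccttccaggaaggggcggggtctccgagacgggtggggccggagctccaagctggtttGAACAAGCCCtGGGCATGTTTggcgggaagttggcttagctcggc
AEN, chr15:88621090-88621389: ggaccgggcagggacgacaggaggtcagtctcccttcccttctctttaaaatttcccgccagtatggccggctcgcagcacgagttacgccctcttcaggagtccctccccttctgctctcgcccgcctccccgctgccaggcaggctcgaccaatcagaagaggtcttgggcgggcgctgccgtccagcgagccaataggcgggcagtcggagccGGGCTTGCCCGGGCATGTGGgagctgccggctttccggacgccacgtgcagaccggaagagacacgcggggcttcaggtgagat
FAS, chr10:88991181-88991480: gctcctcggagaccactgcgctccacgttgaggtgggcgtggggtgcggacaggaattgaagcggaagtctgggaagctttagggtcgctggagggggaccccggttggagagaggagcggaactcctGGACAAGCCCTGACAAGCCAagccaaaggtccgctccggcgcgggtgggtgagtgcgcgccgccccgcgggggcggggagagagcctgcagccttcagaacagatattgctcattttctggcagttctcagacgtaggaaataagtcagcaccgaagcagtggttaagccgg
BTG2, chr1:203305269-203305568: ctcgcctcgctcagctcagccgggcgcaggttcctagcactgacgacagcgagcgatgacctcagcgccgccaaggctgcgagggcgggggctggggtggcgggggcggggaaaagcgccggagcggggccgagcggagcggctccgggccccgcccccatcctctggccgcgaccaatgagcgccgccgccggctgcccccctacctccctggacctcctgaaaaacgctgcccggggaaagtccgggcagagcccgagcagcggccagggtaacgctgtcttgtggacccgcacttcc
The DDB2 match has 0 mismatches and a spacer of 1 base, and it lies after the annotated start. Those of MDM2, AEN and FAS have 2 mismatches with no spacer, and they lie before it. The windows of MDM2, DDB2 and FAS lie wholly inside the gene spans of GENCODE 29, at a start after that of the span. BTG2, the member with the largest mitoxantrone difference, is shown for contrast: its window holds no match, which says only that these letters are not in these 300 bases. The match is a description of letters and was not measured as binding here.

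With mitoxantrone, 33 of the 34 tested members had a higher fitted level than with DMSO, with a median difference of 0.23 in log2(FPKM + 1) against 0.03 over all genes tested, of which 57.04% were higher. Replicate number 1 carried most of this shift: 33, 22 and 21 members were higher at numbers 1, 2 and 3. The share of all genes higher at each single number was not counted, here and below. The medians at these numbers were 0.66, 0.13 and 0.05, against 0.04, 0.06 and -0.03 over all genes. The median was -0.02 without the mitoxantrone library of number 1. That fit keeps the DMSO library of number 1, the highest of its condition for 27 of 34 members. The members with the smallest p-values were BTG2, an antiproliferative gene, CD82, a membrane tetraspanin, the kinase PLK3 and the death receptor TNFRSF10B. None of the 34 passed limma's test at an adjusted p under 0.05, and neither did any of the 18574 genes (0%). At an unadjusted p under 0.05, 4 members were higher (BTG2, CD82, PLK3 and TNFRSF10B), beside 920 genes or 4.95% of all, and 0 members were lower, beside 547 genes or 2.94%. With the replicate number as a block, which takes libraries of 1 number as paired, 10 members were higher at an unadjusted p under 0.05. This stands beside 9.45% of all genes, and again none passed after adjustment. The difference was higher at all 3 replicate numbers for 14 members (20.5% of all genes). The 3 mitoxantrone libraries lay above all 3 DMSO libraries for BTG2, CD82, PLK3 and TNFRSF10B (7.68% of all genes). In bulk RNA, fewer cells of a kind and less RNA per cell cannot be told apart, here and below.

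With gilteritinib alone, the fitted levels of most members lay close to DMSO. The median difference was 0.02 against -0.03 over all genes, and 22 of 34 members were on the higher side (40.23% of all genes). At an adjusted p under 0.05 limma called 0 members and 0 genes (0%). At an unadjusted p under 0.05 it called 0 members higher (0.565% of all genes), and 0 with the replicate block (1.26%). The difference was higher at all 3 replicate numbers for 9 members (9.51% of all genes), and the libraries did not overlap, on the higher side, for CD82 and TNFRSF10B (2.18%). It was lower at all 3 numbers for GADD45B and PIDD1 (16.6% of all genes), and for PIDD1 the libraries did not overlap (4.4%). The 95% intervals of the gilteritinib difference were -0.54 to 0.47 for BTG2, -0.04 to 0.38 for CD82, -0.15 to 0.37 for PLK3 and -0.25 to 0.49 for TNFRSF10B. GADD45A had the lowest fitted difference, -0.38, with 0.05, -0.70 and -0.50 at replicate numbers 1, 2 and 3. PLK2 had the highest, 0.22, with -0.05, 0.33 and 0.38.

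With the combination, 32 of 34 members were higher than with DMSO, with a median difference of 0.30. Over all genes the median was -0.01, and 45.99% were higher. The median was 0.12 without the combination library of number 1, a fit that keeps the DMSO library of that number. At matched numbers 1, 2 and 3 the medians were 0.50, 0.15 and 0.18. Of the 18574 genes 1 passed an adjusted p under 0.05 (0.00538%), and it was no member. At an unadjusted p under 0.05, 5 members were higher (BTG2, CD82, PLK2, PLK3 and TNFRSF10B), beside 0.829% of all genes. With the replicate block there were 17 higher (2.04% of all genes) and 1 lower, GADD45B (2.32%), none of which passed after adjustment. The difference was higher at all 3 replicate numbers for 27 members (10.8% of all genes). The 3 combination libraries lay above the 3 DMSO libraries for 9 members, namely AEN, BTG2, CD82, CYFIP2, GADD45A, PLK2, PLK3, TNFRSF10B and XPC (2.57% of all genes). The 3 comparisons above share the same DMSO libraries, so their lists are not independent of each other.

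Set against gilteritinib alone, which uses no DMSO library, the combination had a higher level in 33 of 34 members (57.20% of all genes). The median was 0.25 against 0.02 over all genes. It was 0.0578 without the combination library of number 1, a fit that keeps the gilteritinib library of that number. At matched numbers 1, 2 and 3 the medians were 0.44, 0.11 and 0.18, against 0.06, -0.03 and 0.03 over all genes. No gene passed after adjustment (0%). BTG2 was the 1 member higher at an unadjusted p under 0.05 (0.802% of all genes), and 10 were with the replicate block (2.48%). The difference was higher at all 3 replicate numbers in 27 members (17.1% of all genes), and libraries did not overlap in 6 (AEN, BTG2, CYFIP2, GADD45A, PLK2 and XPC; 3.87%).

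**Figure D1:**
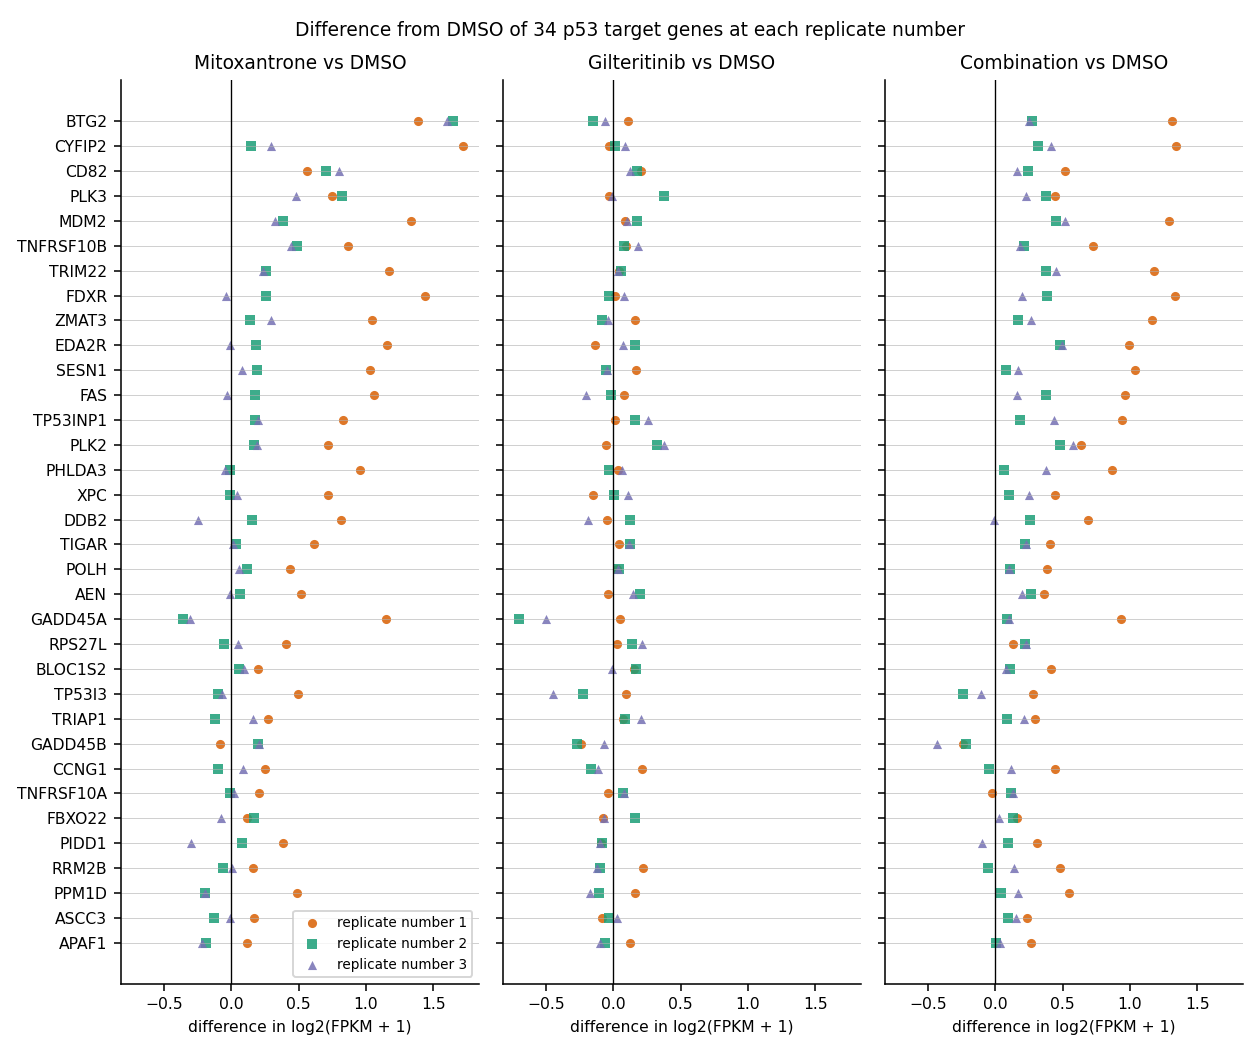
Difference from DMSO in log2(FPKM + 1) (x axis) of the 34 tested members (y axis, ordered by the mitoxantrone difference) at each replicate number, for mitoxantrone, gilteritinib and the combination. Points of replicate number 1 lie furthest to the right for most members with mitoxantrone (median 0.66, against 0.13 and 0.05 at numbers 2 and 3), while gilteritinib points lie around 0.

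On GRCh38 (GENCODE 29), MDM2 spans chromosome 12 from 68808176 to 68850686, BTG2 chromosome 1 from 203305491 to 203309602, PLK3 chromosome 1 from 44800225 to 44805990 and CD82 chromosome 11 from 44564427 to 44620363, and all FPKM values are over whole genes. The members were then read by role, with FPKM values in the order of replicate numbers 1, 2 and 3. The first group holds feedback and checkpoint genes, 8 members, all tested, of which 4 were higher at all 3 replicate numbers with mitoxantrone (20.5% of all genes) and 6 with the combination (10.8%). MDM2, the ubiquitin ligase that degrades p53, stood at 32.3, 20.6 and 21.1 FPKM with DMSO and at 82.8, 27.2 and 26.8 with mitoxantrone. It stood at 34.4, 23.4 and 22.8 FPKM with gilteritinib and at 80.3, 28.6 and 30.6 with the combination. Every mitoxantrone and combination library was above the DMSO library of its own number, but the DMSO library of number 1 was above the treated libraries of numbers 2 and 3, so the groups overlapped. The fitted mitoxantrone difference of MDM2 was 0.68 ± 0.47 (SE, limma adjusted p = 0.811), and with the replicate block its SE was 0.21 (unadjusted p = 0.0106, adjusted p = 0.191). The combination difference was 0.75 (block SE 0.21, unadjusted p = 0.00621, adjusted p = 0.9995).

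BTG2, which restrains G1 progression, stood at 9.02, 13.1 and 13.5 FPKM with DMSO and at 25.2, 42.9 and 43.2 with mitoxantrone. With gilteritinib it was at 9.81, 11.7 and 12.9 FPKM, and with the combination at 23.8, 16.02 and 16.3. All mitoxantrone libraries exceeded all others, and all combination libraries exceeded all DMSO and gilteritinib libraries. The mitoxantrone difference was 1.54 ± 0.23 (SE, limma adjusted p = 0.177, 0.0738 with the block). The combination difference was 0.61 ± 0.23 (unadjusted p = 0.0228, limma adjusted p = 1.0). PLK3, a stress-responsive polo-like kinase, stood at 2.83, 2.84 and 3.44 FPKM with DMSO and at 5.43, 5.78 and 5.202 with mitoxantrone. It was at 2.74, 3.98 and 3.41 FPKM with gilteritinib and at 4.22, 3.98 and 4.20 with the combination. The 3 mitoxantrone libraries were the highest of all 12, and the combination lay between them and DMSO without overlap. Its mitoxantrone difference was 0.68 ± 0.12 (SE, limma adjusted p = 0.279, 0.0861 with the block), and its combination difference was 0.35 ± 0.12 (unadjusted p = 0.0124).

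PLK2, a related kinase, stood at 7.66, 5.96 and 5.95 FPKM with DMSO, at 13.2, 6.84 and 6.93 with mitoxantrone, at 7.37, 7.73 and 8.05 with gilteritinib and at 12.5, 8.70 and 9.38 with the combination. Only the combination lay wholly above DMSO, with a difference of 0.56 ± 0.21 (SE, unadjusted p = 0.0242, limma adjusted p = 1.0). GADD45B, a stress sensor that binds MAP kinase kinases, stood at 9.91, 14.3 and 13.6 FPKM with DMSO, at 9.29, 16.5 and 15.8 with mitoxantrone, at 8.25, 11.7 and 12.9 with gilteritinib and at 8.23, 12.2 and 9.78 with the combination. It was the 1 member lower with the combination in the block fit, with a difference of -0.30 ± 0.10 (block SE, unadjusted p = 0.0125, limma adjusted p = 0.9995), and its number 1 libraries were the lowest of each condition. The other 3 members were not singled out by p: the phosphatase PPM1D ranged from 6.84 to 13.0 FPKM over the 12 libraries, cyclin G1 (CCNG1) from 119.7 to 216.5 and the cell cycle arrest gene GADD45A from 1.85 to 8.66. GADD45A differed in direction between replicate numbers, with 8.66 FPKM against 3.37 at number 1 but 2.61 against 3.62 and 2.54 against 3.36 at numbers 2 and 3, mitoxantrone against DMSO.

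**Figure D2:**
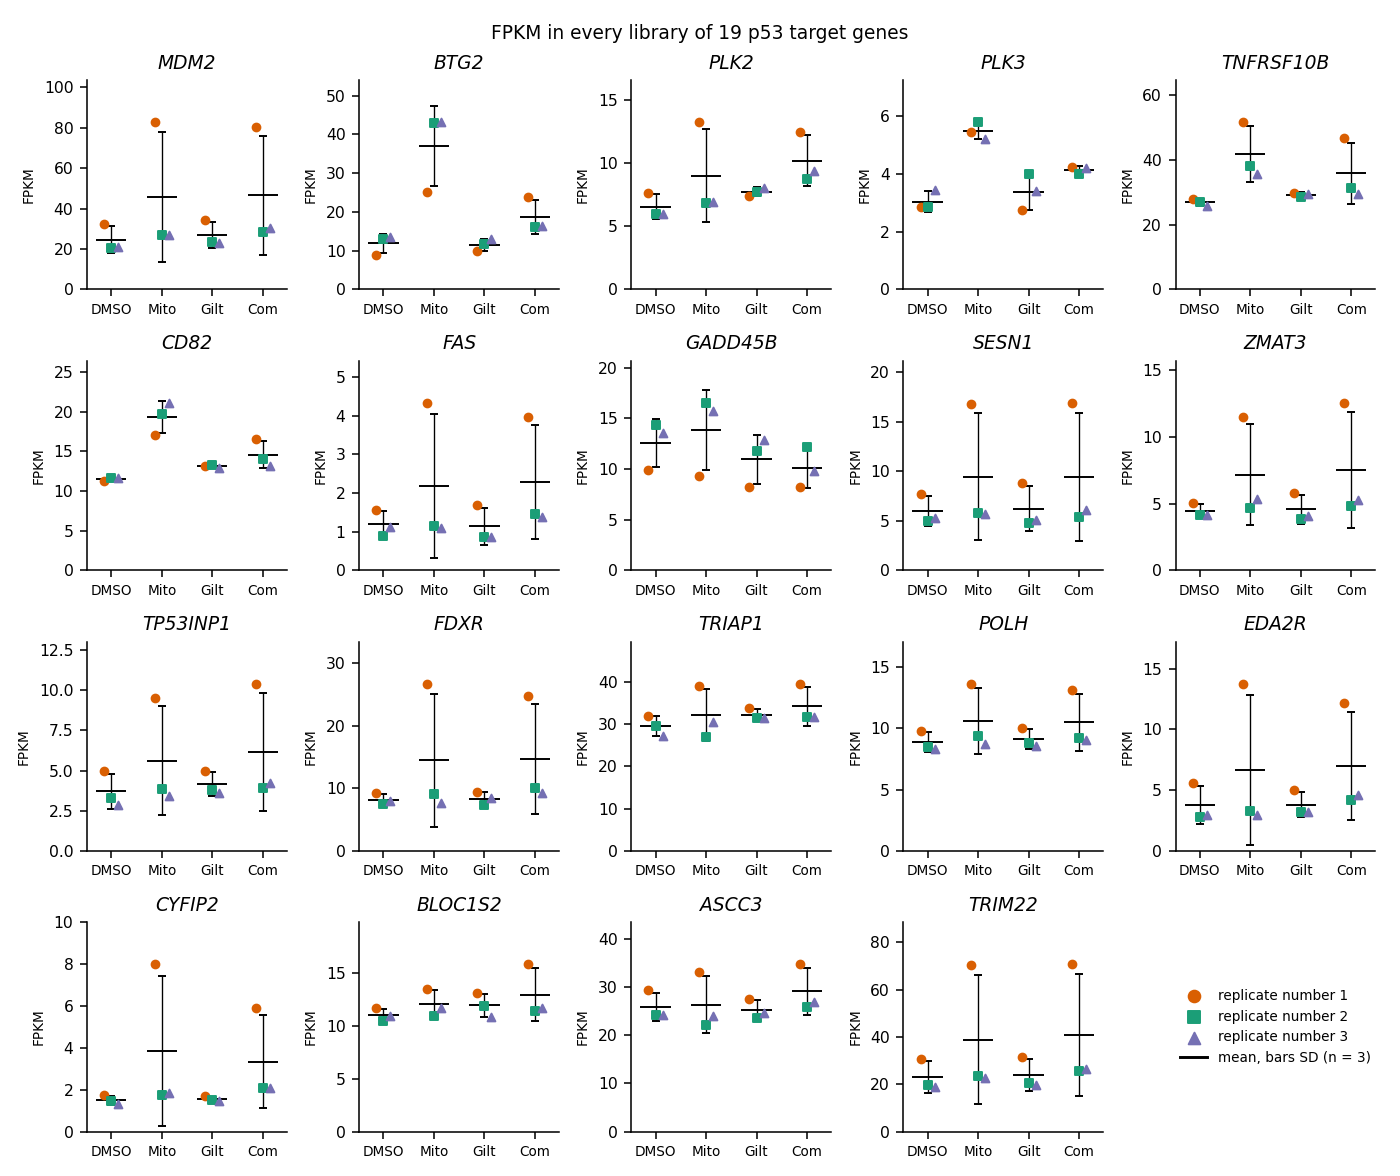
FPKM (y axis, linear from 0) of 19 members in each of the 12 libraries (points), by condition (x axis; Mito, mitoxantrone; Gilt, gilteritinib; Com, combination). Lines and bars are the mean and SD of 3 libraries, and for MDM2, TRIM22, CYFIP2 and FDXR the bars reflect 1 high library, replicate number 1 (82.8, 70.2, 8.001 and 26.8 FPKM with mitoxantrone).

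Death receptors and apoptosis genes formed the largest group, with 11 members, all tested. TNFRSF10B, the TRAIL receptor DR5, stood at 27.9, 27.0 and 25.9 FPKM with DMSO and at 51.7, 38.2 and 35.6 with mitoxantrone. It was at 29.8, 28.6 and 29.6 FPKM with gilteritinib and at 46.8, 31.4 and 29.6 with the combination. Each treated condition lay wholly above DMSO, by little for gilteritinib and by most for mitoxantrone. The mitoxantrone difference was 0.60 ± 0.17 (SE, limma adjusted p = 0.488, 0.106 with the block), the combination difference 0.37 ± 0.17 (unadjusted p = 0.0469) and the gilteritinib difference 0.12 ± 0.17 (unadjusted p = 0.486). Its sister receptor TNFRSF10A (DR4) stayed between 9.23 and 11.1 FPKM in all 12 libraries, with a mitoxantrone difference of 0.07 (95% interval -0.12 to 0.26).

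FAS, the receptor of Fas ligand, was a low gene, at 1.55, 0.89 and 1.12 FPKM with DMSO, 4.33, 1.13 and 1.08 with mitoxantrone, 1.70, 0.868 and 0.851 with gilteritinib and 3.98, 1.46 and 1.38 with the combination. EDA2R, a receptor of ectodysplasin A2, was at 5.62, 2.75 and 2.99 FPKM with DMSO, 13.8, 3.27 and 2.96 with mitoxantrone, 5.02, 3.21 and 3.19 with gilteritinib and 12.2, 4.23 and 4.62 with the combination. In both receptors the large difference sat at replicate number 1, and at numbers 2 and 3 the combination was above DMSO. Mitoxantrone alone was above DMSO at number 2 and just below it at number 3. Their combination differences were 0.50 for FAS and 0.66 for EDA2R, with unadjusted block p of 0.0303 and 0.0223 and a limma adjusted p of 0.9995 each. CYFIP2, a subunit of the WAVE actin regulatory complex, was at 1.73, 1.47 and 1.30 FPKM with DMSO, 8.001, 1.73 and 1.82 with mitoxantrone, 1.68, 1.495 and 1.45 with gilteritinib and 5.91, 2.08 and 2.06 with the combination. It had the second largest mitoxantrone difference of the members, 0.72 ± 0.43 (SE, limma adjusted p = 0.749), most of it from 1 library, and all 3 combination libraries were above all 3 DMSO libraries.

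TP53INP1, an autophagy and cell death regulator, was at 4.94, 3.30 and 2.85 FPKM with DMSO, 9.54, 3.86 and 3.43 with mitoxantrone, 4.997, 3.81 and 3.60 with gilteritinib and 10.4, 3.88 and 4.22 with the combination. All 9 treated libraries were above the DMSO library of their number, and the conditions overlapped. TRIAP1, a small inhibitor of apoptosome formation, was at 32.0, 29.6 and 27.1 FPKM with DMSO, 39.0, 27.1 and 30.5 with mitoxantrone, 33.8, 31.5 and 31.5 with gilteritinib and 39.6, 31.6 and 31.7 with the combination. Its differences were small, 0.11 with mitoxantrone and 0.20 with the combination (block SE 0.08). The 5 others ranged over the libraries as follows: the apoptosome scaffold APAF1 from 14.1 to 24.8 FPKM, the PIDDosome subunit PIDD1 from 5.13 to 8.47, the nuclease AEN from 14.7 to 22.7, PHLDA3, an AKT antagonist, from 4.15 to 14.5, and TNFRSF10A as given above. APAF1 was the 1 tested member with a lower fitted level with mitoxantrone (-0.10 ± 0.20, SE, limma adjusted p = 0.964).

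DNA repair and nucleotide supply held 5 members, whose mitoxantrone differences ran from 0.01 (ASCC3) to 0.25 (XPC). POLH, the translesion polymerase eta, was at 9.79, 8.49 and 8.34 FPKM with DMSO, 13.6, 9.32 and 8.71 with mitoxantrone, 10.03, 8.78 and 8.57 with gilteritinib and 13.1, 9.23 and 9.04 with the combination. It was higher than DMSO at each number in each treatment, with a mitoxantrone difference of 0.21 ± 0.09 (block SE, unadjusted p = 0.0446, limma adjusted p = 0.300). ASCC3, a helicase of alkylation repair, was at 29.3, 24.1 and 24.1 FPKM with DMSO, 33.0, 22.02 and 23.9 with mitoxantrone, 27.6, 23.6 and 24.6 with gilteritinib and 34.7, 25.8 and 26.9 with the combination. Only the combination was above DMSO at all 3 numbers (0.16 ± 0.07, block SE, unadjusted p = 0.0440). The damage sensors XPC (10.4 to 19.8 FPKM) and DDB2 (15.5 to 41.2 FPKM) and the ribonucleotide reductase subunit RRM2B (24.2 to 52.6 FPKM) had unadjusted block p-values of 0.133, 0.121 and 0.0624 with the combination. DDB2, whose promoter window holds the match with 0 mismatches, reached 41.2 FPKM at replicate number 1 with mitoxantrone against 22.97 with DMSO, but 18.4 against 16.4 and 15.5 against 18.6 at numbers 2 and 3.

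Of 6 redox, metabolism and mitochondria genes 4 were tested. SESN1, a stress-induced inhibitor of mTORC1 signalling, was at 7.72, 4.97 and 5.28 FPKM with DMSO, 16.8, 5.81 and 5.65 with mitoxantrone, 8.83, 4.74 and 5.09 with gilteritinib and 16.9, 5.32 and 6.08 with the combination. FDXR, the mitochondrial ferredoxin reductase, was at 9.24, 7.45 and 7.91 FPKM with DMSO, 26.8, 9.12 and 7.68 with mitoxantrone, 9.34, 7.27 and 8.398 with gilteritinib and 24.8, 10.04 and 9.23 with the combination. The ratio of mitoxantrone to DMSO at replicate number 1 was 2.18 for SESN1 and 2.89 for FDXR, and at number 3 it was 1.069 and 0.972. Their block-fit combination differences were 0.43 (unadjusted p = 0.0499) for SESN1 and 0.64 (unadjusted p = 0.0490) for FDXR. TIGAR, which lowers glycolytic flux, ranged from 1.503 to 4.18 FPKM and the quinone oxidoreductase TP53I3 from 1.68 to 4.35. SESN2, a paralog of SESN1, was not tested: it was listed at 0 in all DMSO and combination libraries and reached 0.0273 FPKM at most. SPATA18, a mitochondrial quality control gene, missed the level filter, with 0.839, 0.649 and 0.678 FPKM with DMSO, 3.36, 0.733 and 0.678 with mitoxantrone and 2.996, 0.867 and 0.873 with the combination.

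The last group held 7 genes for RNA, protein turnover and membranes, 6 of them tested. CD82, a tetraspanin known as a metastasis suppressor, stood at 11.3, 11.7 and 11.7 FPKM with DMSO and at 17.1, 19.7 and 21.1 with mitoxantrone. It was at 13.1, 13.3 and 12.9 FPKM with gilteritinib and at 16.5, 14.05 and 13.2 with the combination. All 9 treated libraries were above all 3 DMSO libraries, and the mitoxantrone libraries were the highest. The mitoxantrone difference was 0.69 ± 0.09 (SE, limma adjusted p = 0.177, 0.0738 with the block), the combination difference 0.31 ± 0.09 (unadjusted p = 0.00773, limma adjusted p = 1.0) and the gilteritinib difference 0.17 ± 0.09 (unadjusted p = 0.1002). TRIM22, an interferon-induced ubiquitin ligase, was at 30.7, 19.5 and 18.98 FPKM with DMSO, 70.2, 23.6 and 22.5 with mitoxantrone, 31.6, 20.4 and 19.5 with gilteritinib and 70.7, 25.7 and 26.3 with the combination. Like MDM2, it was above DMSO at every number in each treatment while its conditions overlapped, with block-fit differences of 0.56 with mitoxantrone (unadjusted p = 0.0195) and 0.67 with the combination (unadjusted p = 0.00764).

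ZMAT3, a zinc finger RNA-binding protein, was at 5.05, 4.15 and 4.18 FPKM with DMSO, 11.5, 4.67 and 5.34 with mitoxantrone, 5.78, 3.86 and 4.04 with gilteritinib and 12.6, 4.80 and 5.24 with the combination. BLOC1S2, a subunit of lysosome-positioning complexes, was at 11.6, 10.5 and 10.9 FPKM with DMSO, 13.5, 10.9 and 11.7 with mitoxantrone, 13.1, 11.9 and 10.8 with gilteritinib and 15.8, 11.4 and 11.6 with the combination. Both were above DMSO at all 3 numbers with mitoxantrone and with the combination, with combination differences of 0.53 for ZMAT3 and 0.20 for BLOC1S2 (unadjusted block p of 0.0198 and 0.028). RPS27L, a ribosomal protein paralog, ranged from 20.2 to 33.0 FPKM and the F-box protein FBXO22 from 7.55 to 13.0. KITLG, the ligand of the receptor KIT, stayed below 1 FPKM everywhere (0.0599 to 0.936) and was not tested.

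Most members were highest at replicate number 1, namely 27 of 34 with DMSO, 30 with mitoxantrone, 25 with gilteritinib and 32 with the combination, beside 54.7%, 52.8%, 44.8% and 54.4% of all genes. In a fit with 1 term for number 1 against numbers 2 and 3, chosen after seeing the data, 26 members were higher at number 1 at a limma adjusted p under 0.05 (26.9% of all genes) and 1 was lower, GADD45B (12.7%). The drug differences also depended on it. The mitoxantrone difference was larger at number 1 than at 2 and 3 at a limma adjusted p under 0.05 for 10 members (1.15% of all genes): AEN, CYFIP2, EDA2R, FDXR, GADD45A, MDM2, PPM1D, SESN1, TRIM22 and XPC. For MDM2 it was larger by 0.98 ± 0.07 (SE, limma adjusted p = 0.00921) and for GADD45A by 1.48 ± 0.15 (adjusted p = 0.0163). The combination difference was larger at number 1 for 5 members (0.662% of all genes): BTG2, MDM2, SESN1, TRIM22 and ZMAT3. Gilteritinib gave 0 such members (0.0215%). In these contrasts each number 1 library is alone in its condition and is assumed to vary like the others. The cause of the difference between numbers was not tested.

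**Figure D3:**
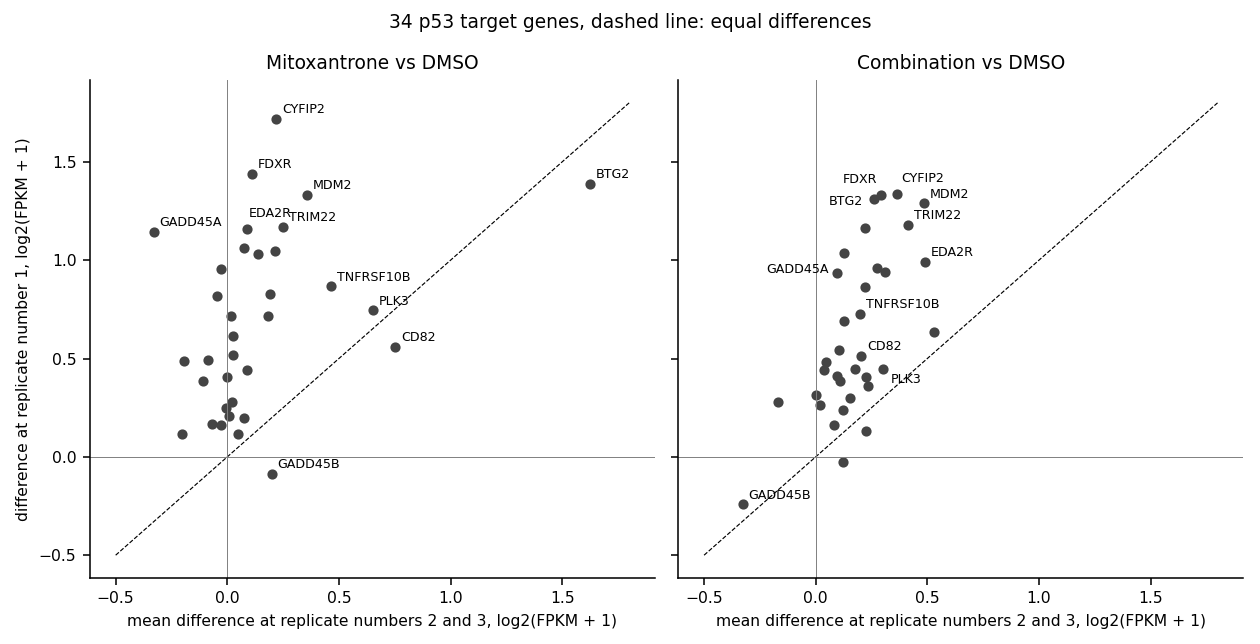
Difference from DMSO in log2(FPKM + 1) at replicate number 1 (y axis) against the mean difference at numbers 2 and 3 (x axis) for 34 members, with mitoxantrone (left) and the combination (right). With mitoxantrone, BTG2 (1.39 on the y axis) and CD82 (0.56) lie to the right of the dashed line of equal differences and PLK3 (0.75) lies close to it, while most other members lie above it, MDM2 at 1.33.

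Without the number 1 libraries, a choice also made after seeing the data, more members passed. With mitoxantrone 6 were higher at a limma adjusted p under 0.05 (3.08% of all genes): BTG2 (1.62 ± 0.05, SE, adjusted p = 0.000159), CD82 (0.75 ± 0.05, adjusted p = 0.00142), TNFRSF10B (0.46 ± 0.05, adjusted p = 0.00666), MDM2 (0.36 ± 0.04, adjusted p = 0.00875), PLK3 (0.65 ± 0.11, adjusted p = 0.0249) and TRIM22 (0.25 ± 0.04, adjusted p = 0.0253). APAF1 was the 1 member lower, by -0.20 ± 0.04 (adjusted p = 0.0462; 3.32% of all genes). With the combination MDM2 was the 1 member that passed (0.48 ± 0.04, adjusted p = 0.0474), beside 0.0108% of all genes. With gilteritinib 0 members passed (0.0323% of all genes higher and 0.581% lower). The smallest p-values were those of GADD45A (-0.60 ± 0.09, SE, limma adjusted p = 0.0607) and PLK2 (0.35 ± 0.06, adjusted p = 0.0822). These fits rest on 2 libraries per condition.

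In the direct test between the single drugs, 2 of 34 members had a higher fitted level with gilteritinib than with mitoxantrone, beside 36.09% of all genes. The other 32 members were lower. By replicate number, 2, 11 and 17 members were higher with gilteritinib at numbers 1, 2 and 3, with medians of -0.67, -0.05 and -0.01. Over all genes the medians were -0.125, -0.04 and -0.01. The fitted median of -0.27, against -0.06 over all genes, became 0.04 without the mitoxantrone library of number 1. That fit keeps the gilteritinib library of number 1. No gene passed after adjustment (0%), and with the replicate block 5 genes did (0.0269%), none of them a member. At an unadjusted p under 0.05, 4 members were lower with gilteritinib (BTG2, CD82, PLK3 and TNFRSF10B; 6.56% of all genes), and 10 with the replicate block (12.5%). BTG2 differed by -1.58 ± 0.23 (SE, limma adjusted p = 0.221, 0.0532 with the block) and CD82 by -0.52 ± 0.09 (unadjusted p = 0.000202, limma adjusted p = 0.221). At replicate numbers 2 and 3 alone, 5 members were lower at a limma adjusted p under 0.05 (3.98% of all genes): BTG2, CD82, MDM2, TNFRSF10B and TRIM22.

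Between the combination and mitoxantrone alone, the median difference of the members was 0.07 against -0.04 over all genes. Its sign depended on which number 1 library was left out. It was -0.19 without that of the combination and 0.35 without that of mitoxantrone, and each fit keeps the other. Compared at the same number, the medians were -0.08, 0.09 and 0.17 at numbers 1, 2 and 3. Over all genes they were -0.05, -0.07 and 0.02. At these numbers, 12, 25 and 26 members were higher in the combination. No gene passed after adjustment (0%), and with the replicate block 2 genes did (0.0108%), none of them a member. At an unadjusted p under 0.05, 3 members were lower in the combination than with mitoxantrone alone, BTG2, CD82 and PLK3 (4.12% of all genes), and their libraries did not overlap (6.11%). With the block GADD45B was lower as well (8.58%) and APAF1 was higher (3.6%). The differences were -0.93 ± 0.23 for BTG2 (SE, unadjusted p = 0.00202, limma adjusted p = 0.821), -0.38 ± 0.09 for CD82 (unadjusted p = 0.00206) and -0.33 ± 0.12 for PLK3 (unadjusted p = 0.0158). At numbers 1, 2 and 3 they were -0.08, -1.37 and -1.35 for BTG2 and -0.05, -0.46 and -0.64 for CD82. For PLK3 they were -0.30, -0.45 and -0.26. The lowering of BTG2 and CD82 thus sat at numbers 2 and 3, with little at number 1. MDM2 differed by 0.07 with a 95% interval of -0.96 to 1.10. At replicate numbers 2 and 3 alone, 4 members were lower in the combination at a limma adjusted p under 0.05 (BTG2, CD82, GADD45B and TNFRSF10B; 3.51% of all genes) and 6 were higher (AEN, APAF1, GADD45A, PLK2, PPM1D and RPS27L; 2.62%).

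The interaction asks whether the mitoxantrone difference is the same with and without gilteritinib. Its median over members was 0.01 (-0.01 over all genes), and 0 members and 0 genes (0%) passed after adjustment. The sign of the median changed with the replicate number: it was -0.11, 0.07 and 0.09 at numbers 1, 2 and 3. Over all genes these medians were 0.01, -0.09 and 0.06. At an unadjusted p under 0.05 the mitoxantrone difference was smaller with gilteritinib for 3 members (1.48% of all genes, 3.84% with the block, which gave the same count): BTG2 by -0.90 ± 0.33 (SE, unadjusted p = 0.0190), CD82 by -0.55 ± 0.13 (unadjusted p = 0.00177) and PLK3 by -0.44 ± 0.16 (unadjusted p = 0.0210). The limma adjusted p was 0.9997 for each. For BTG2 the mitoxantrone difference at numbers 1, 2 and 3 was 1.39, 1.64 and 1.60 without gilteritinib and 1.20, 0.42 and 0.31 with it. At replicate numbers 2 and 3 alone it was smaller for BTG2, CD82 and TNFRSF10B at a limma adjusted p under 0.05 (1.27% of all genes) and larger for GADD45A (1.02 ± 0.13, adjusted p = 0.0133; 1.7% of all genes). At these numbers GADD45A was at 0.721 and 0.754 of its DMSO level with mitoxantrone and at 0.511 and 0.621 with gilteritinib. With the combination it was at 1.078 and 1.098, so each single drug lay below DMSO and the combination close to it. At number 1 the ratios were 2.572, 1.048 and 2.186.

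**Figure D4:**
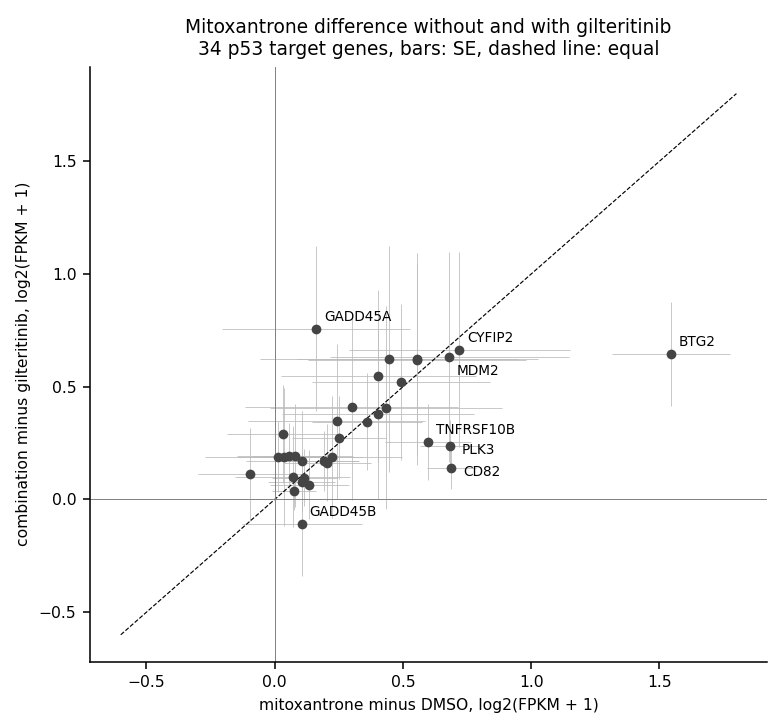
Fitted mitoxantrone difference in log2(FPKM + 1) without gilteritinib (x axis, mitoxantrone minus DMSO) and with it (y axis, combination minus gilteritinib) for 34 members, with SE bars and a dashed line of equal differences. BTG2 (1.54 and 0.65), CD82 (0.69 and 0.14) and PLK3 (0.68 and 0.24) lie below the line, and GADD45A (0.16 and 0.76) lies above it. The fitted gilteritinib difference of GADD45A from DMSO was -0.38, so its y value is measured from a lower level.

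Beyond the members, 24 regulators of p53 were listed, of which 21 were tested. With mitoxantrone 1 was higher and 2 were lower at an unadjusted p under 0.05, beside 4.95% and 2.94% of all genes. HEXIM1, an inhibitor of transcription elongation, was higher by 0.25 ± 0.07 (SE, unadjusted p = 0.00574), and the checkpoint kinases CHEK1 (-0.31 ± 0.08, unadjusted p = 0.00284) and ATR (-0.26 ± 0.11, unadjusted p = 0.0455) were lower. With gilteritinib 1 regulator was higher, again HEXIM1 (0.16 ± 0.07, SE, limma adjusted p = 0.9999), and 0 were lower, beside 0.565% and 1.3% of all genes. With the combination 2 were higher, HEXIM1 (0.23 ± 0.07, SE, limma adjusted p = 1.0) among them, and 0 were lower, beside 0.829% and 0.84% of all genes. MDM4, the partner of MDM2, lay between 24.9 and 32.4 FPKM.

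Of 40 other p53 targets 27 were tested. With mitoxantrone 5 were higher and 0 lower at an unadjusted p under 0.05 (4.95% and 2.94% of all genes), with a median of 0.13 against 0.03 over all genes. CDKN1A, which encodes the cyclin-dependent kinase inhibitor p21, was at 48.4, 19.3 and 19.1 FPKM with DMSO, 113.1, 45.4 and 45.1 with mitoxantrone, 20.2, 20.3 and 20.8 with gilteritinib and 92.1, 30.1 and 30.7 with the combination. Its mitoxantrone difference was 1.20 ± 0.49 (SE, unadjusted p = 0.0340, limma adjusted p = 0.582), and its value in DMSO number 1 is the 1 of 12 that is at no whole number of fragments. Of 18210 genes with a recovered length 18195 had 12 whole values, all 34 tested members among them. The smallest unadjusted p-values belonged to SERTAD1, a cell cycle and transcription cofactor (0.69 ± 0.17, SE, limma adjusted p = 0.474), TNFRSF10C, a decoy receptor of TRAIL (0.56 ± 0.18, limma adjusted p = 0.507), and ABHD4, a lipid hydrolase (0.42 ± 0.15, limma adjusted p = 0.524). With the combination 0 of the 27 were higher or lower at an unadjusted p under 0.05 (0.829% and 0.84% of all genes), and with gilteritinib 0 of the 27 (0.565% and 1.3%).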

How the data were processed

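Per the labels, total RNA of MV4-11 cells was amplified by Geo-seq and made into libraries with a transposase kit. The authors deposited 1 table of FPKM values with 4 decimals. The submitters' processing notes name Bowtie 0.12.9, Cufflinks 2.1.1, HTSeq and DESeq2 and the mouse build mm10, although the identifiers are human Ensembl genes. The build behind the values is not settled, and gene positions here are those of GENCODE 29 on GRCh38. Whether strand was used in counting is not given in the sources used here.

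Symbols were matched through GENCODE 29 and gene name tables. Genes with at least 1 FPKM in 3 of 12 libraries (18574) were fitted on log2(FPKM + 1) with limma 3.58.1 (R 4.3.3, trend, two-sided), 1 mean per condition, and p-values were adjusted by Benjamini-Hochberg over all genes. The pseudocount understates changes of low genes. Depth was recovered with Python 3.11.15 from FPKM steps, where whole means within the rounding of 4 decimals plus 0.002 fragments and 1e-06 of the value. The methods were tested on simulated data. Of the 18 same-numbered pairs of libraries, all had correlated deviations from their condition means (0.165 to 0.657). Pairs of other numbers and other conditions ran from -0.562 to 0.434, so the ranges overlapped. Numbers from the titles were taken to pair the libraries. These ranges do not show whether numbers 2 and 3 are matched across conditions, since number 1 stood apart. Alternatives were other pseudocounts, filters, scalings, the replicate block, left-out libraries, and, added later, voom on recovered fragments, a term for number 1, and numbers 2 and 3 alone.

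Every library is printed for the 19 members with an unadjusted p under 0.05 against DMSO in either fit, or with the same sign at all 3 numbers with mitoxantrone and the combination and a log2 difference of at least 0.5. Of the other lists, the 3 smallest p-values with mitoxantrone, CDKN1A and MDM4 are named, and 1 further gene that the rule names is not reported here. Where text singles out a member by replicate number, it was chosen after its values were seen. The members, roles and lists were chosen with earlier results of these data known.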

Additional observations from a re-analysis of the deposited data

Results flagged for a closer look

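The difference made by gilteritinib had opposite signs without and with mitoxantrone, at all 3 replicate numbers, for CD82 and TNFRSF10B. Both members were picked by this rule, so the sign of their interaction follows from the choice. The interaction p-values below come from the same values and are no separate support. How many of all genes meet the rule was not counted. For CD82, gilteritinib minus DMSO was 0.21, 0.18 and 0.13 in log2(FPKM + 1) at replicate numbers 1, 2 and 3, and combination minus mitoxantrone was -0.05, -0.46 and -0.64. The interaction was -0.55 ± 0.13 (SE, unadjusted p = 0.00177, limma adjusted p = 0.9997, 0.524 with the replicate block), and at numbers 2 and 3 alone it was -0.70 ± 0.08 (adjusted p = 0.00836). For TNFRSF10B the differences were 0.09, 0.08 and 0.19 without mitoxantrone and -0.14, -0.28 and -0.26 with it. The interaction was -0.34 ± 0.24 (SE, unadjusted p = 0.173, limma adjusted p = 0.9997, 0.715 with the block), and -0.40 ± 0.07 at numbers 2 and 3 alone (adjusted p = 0.0468). Gilteritinib was at 25 nM without mitoxantrone and at 20 nM with it, so dose and company of the drug cannot be told apart here.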

How the results depend on the processing

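With limma as reported 0 members passed an adjusted p under 0.05 in any of 7 comparisons, and this held under other pseudocounts, filters, scalings, no trend and the replicate block (0 members with the block in mitoxantrone against DMSO; the block changed no call of a member). Leaving out 1 library gave 0 to 2 members for mitoxantrone against DMSO and 0 to 2 for gilteritinib against mitoxantrone, with 2 in each case (BTG2 and CD82; 0.194% and 0.221% of all genes) without mitoxantrone number 1. The choices added after seeing the data called members. Numbers 2 and 3 alone called 7 for mitoxantrone against DMSO (6.41% of all genes) and 1 for the combination against DMSO (0.0485%). They called 10 for the combination against mitoxantrone (6.13%), 5 for gilteritinib against mitoxantrone (6.63%) and 4 for the interaction (2.97%). A term for number 1 called 3 for mitoxantrone against DMSO (BTG2, CD82 and PLK3; 0.183% of all genes) and 3 for gilteritinib against mitoxantrone (1.36%). Voom on recovered fragments with the replicate block called 4 for mitoxantrone against DMSO (BTG2, CD82, PLK3 and TNFRSF10B; 1.61% of all genes), 1 for the combination against mitoxantrone (0.776%) and 5 for gilteritinib against mitoxantrone (3.92%), and without the block it called 0 in each. The cause was not tested. The gilteritinib median of 0.02 became 0.068 under median-ratio scaling, 0.0621 under quantile normalization, 0.0438 at numbers 2 and 3 and 0.0306 by voom. Leaving out 1 library moved medians from -0.0594 to 0.10 for gilteritinib against DMSO, from -0.40 to 0.04 for gilteritinib against mitoxantrone, from 0.0578 to 0.34 for the combination against gilteritinib, from -0.19 to 0.35 for the combination against mitoxantrone and from -0.18 to 0.30 for the interaction. The mitoxantrone median of 0.23 ranged from -0.02 (without mitoxantrone number 1) to 0.40, and the combination median of 0.30 from 0.12 (without combination number 1) to 0.38. A fit without 1 library of number 1 keeps number 1 in the other conditions, so these medians are not matched by number. Of 1356 alternative values of the 19 named members against DMSO, 1293 kept direction and side, 16 newly passed and 47 changed sign.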
